A study of Mus musculus with 12 samples.

Results

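The receptors described here are 7 genes whose protein products regulatory T (Treg) cells carry on their surface and use to receive or deliver checkpoint and costimulatory signals: Ctla4, Tigit, Lag3, Icos, Tnfrsf4, Tnfrsf9 and Tnfrsf18. They were selected by gene symbol, and all 7 had a row among the 1284 genes of the deposited Treg table. In the deposited microglia table of 2186 genes, 2 of the 7 symbols, Lag3 and Tnfrsf9, had a row. Mouse Treg cells had been taken from the spleen (n = 3 libraries) or from the lesioned spinal cord (n = 3) on day 14 after the injury, so the splenic cells also came from injured animals. Primary microglia, macrophages that reside in brain and spinal cord, were kept in culture without stimulation (n = 3) or together with Treg cells (n = 3). Strain, age, the markers by which the Treg cells were sorted and the source of the co-cultured Treg cells are not given in the sources used here. Whether libraries of 1 group stem from different animals or cultures is not stated either, so the p-values reflect library spread that may be technical.

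T cells need a signal through the antigen receptor and further signals through costimulatory receptors, and inhibitory receptors hold that response in check. CTLA-4 and ICOS belong to the CD28 family, TIGIT and LAG-3 are inhibitory receptors of the immunoglobulin superfamily, and OX40 (Tnfrsf4), 4-1BB (Tnfrsf9) and GITR (Tnfrsf18) belong to the tumour necrosis factor (TNF) receptor superfamily, which signals through TRAF adaptors to NF-κB. Treg cells are known for high amounts of CTLA-4, OX40 and GITR, and for more of the other receptors when they are activated or reside in tissue.

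The unit is FPKM, fragments scaled by the length of the transcript and the size of the library, so levels of different genes can be set side by side. Sequencing depth is unknown. Summed over the 1284 rows, the spleen libraries held 64893 to 65362 FPKM and the cord libraries 111243 to 134887 FPKM. The deposited Treg table is a selection, since in the authors' deposited table no log2 value was smaller in size than 1.0007 and no Q value exceeded 0.0498. Hence each of the 7 receptors had already passed the authors' comparison of these libraries. The fold changes below describe size and spread and are not independent evidence of a difference. With bulk RNA, a different share of cells that express a gene and a different amount of RNA per cell cannot be told apart. None of the 11 Treg and T cell markers on the marker list, which included Foxp3, Il2ra, Cd3e and Cd4, had a row, so the cell type label could not be checked against them here. Cd2, an adhesion receptor of T and natural killer cells, stood at 709 ± 26.3 FPKM in splenic cells and 1627 ± 144 FPKM in cord cells (n = 3 libraries each, SD).

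All 7 receptor genes were higher in Treg cells of the injured spinal cord than in those of the spleen with the values as deposited. In each of the 7, the lowest spinal cord library lay above the highest spleen library. Tnfrsf9 had the largest ratio of mean FPKM, 6.63-fold, followed by Ctla4 (4.78-fold), Tigit (3.90-fold) and Lag3 (3.47-fold), while Tnfrsf18 (2.62-fold), Tnfrsf4 (2.29-fold) and Icos (2.26-fold) had smaller ones. The limma test on log2(FPKM + 1), with Benjamini-Hochberg adjustment over the 1072 genes with a mean of at least 1 FPKM, called all 7 higher at an adjusted p under 0.05. It called 61.0% of the tested genes higher and 99.6% in either direction, and in 59.0% of the tested genes every spinal cord library lay above every spleen library. Since the table had been selected for change, nothing is read from these counts of members. The median log2 fold change was 1.76 over the 7 receptors, 0.95 over all 1072 tested genes and 1.32 over the 654 genes called higher.

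**Figure D1:**
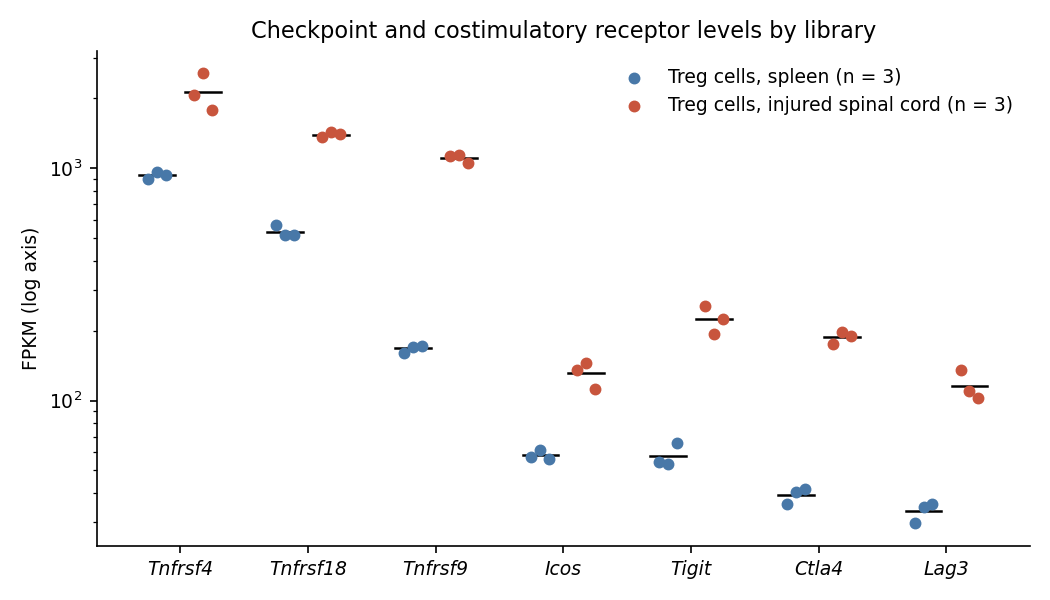
FPKM (log axis) of the 7 receptor genes in each Treg library, with spleen libraries in blue and spinal cord libraries in red (n = 3 each) and black bars for group means. The groups do not overlap for any of the 7 genes, and the distance between them is widest for Tnfrsf9 (168 against 1111 FPKM) and narrowest for Icos (58.0 against 131 FPKM).

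Among the inhibitory receptors, Ctla4 (NCBI gene 12477, chromosome 1, 60909025 to 60915832, GRCm38.p6) encodes the receptor that binds CD80 and CD86 more tightly than CD28 does and removes them from antigen-presenting cells. It stood at 36.01, 40.29 and 41.46 FPKM in spleen libraries 1, 2 and 3 and at 175.4, 198.17 and 189.09 FPKM in spinal cord libraries 1, 2 and 3. Library 1 was the lowest in both groups, and the groups were far apart. The log2 fold change was 2.23 (SE 0.15, limma adjusted p = 3.29e-07). By level, Ctla4 moved from rank 258 to rank 99 of the 1284 rows.

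Tigit (gene 100043314, chromosome 16, 43626137 to 43665125) encodes an inhibitory receptor for the poliovirus receptor CD155 and related nectins. Its values were 54.3, 53.13 and 65.45 FPKM in splenic cells and 254.9, 193 and 225.51 FPKM in cord cells. Spinal cord library 2 was the lowest of its group and still stood well above the highest spleen library. Its log2 fold change was the third in size, 1.94 (SE 0.16, limma adjusted p = 1.82e-06). The annotated span of Tigit shares 8256 bases with that of Zbtb20, and it is not known here whether reads were assigned by strand.

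Lag3 (gene 16768, chromosome 6, 124904359 to 124912434) encodes a receptor for MHC class II molecules that is related to CD4, and its gene lies 16.1 kb from Cd4. It had the lowest level of the 7 in both tissues, at 29.65, 34.66 and 35.93 FPKM in splenic cells and 135.41, 109.62 and 102.63 FPKM in cord cells. Spinal cord library 1 was the highest of its group, and spleen library 1 was the lowest of its own. The log2 fold change was 1.76 (SE 0.18, limma adjusted p = 5.38e-06).

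Icos (gene 54167, chromosome 1, 60960773 to 61000322), a costimulatory receptor of the CD28 family, lies 44.9 kb from Ctla4. It stood at 57.07, 60.98 and 55.97 FPKM in splenic cells and at 135.95, 145.58 and 112.27 FPKM in cord cells. Its log2 fold change was the smallest of the 7, 1.16 (SE 0.16, limma adjusted p = 5.36e-05). The neighbouring genes differed within libraries, since the ratio of Ctla4 to Icos was 0.677 ± 0.0568 in the spleen and 1.45 ± 0.210 in the spinal cord (SD, n = 3 each), with no overlap.

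Of the TNF receptor superfamily, Tnfrsf9 (gene 21942, chromosome 4, 150920155 to 150946104) encodes 4-1BB, a costimulatory receptor that appears on T cells after activation. Its level was 161.03, 170.28 and 171.48 FPKM in splenic cells and 1131.55, 1146.81 and 1055.7 FPKM in cord cells. The libraries of each tissue lay close together, with coefficients of variation of 3.41% and 4.39%. The log2 fold change was 2.72 (SE 0.12, limma adjusted p = 1.69e-08), larger than that of 91.9% of the genes called higher. In the authors' deposited table Tnfrsf9 had the lowest Q value of all 1284 rows (6.67e-205), with a log2 fold change of 2.84.

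Tnfrsf18 (gene 21936, chromosome 4, 156026322 to 156028894), which encodes GITR, held 568.25, 516.87 and 514.9 FPKM in splenic cells and 1358.37, 1434.75 and 1402.2 FPKM in cord cells. Spleen library 1 was the highest of its group, and the spinal cord libraries differed little, with a coefficient of variation of 2.74%. Its log2 fold change was 1.39 (SE 0.12, limma adjusted p = 2.27e-06). Tnfrsf18 ranked 22 in the spleen and 20 in the spinal cord among the 1284 rows.

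Tnfrsf4 (gene 22163, chromosome 4, 156013595 to 156016613), which encodes OX40, lies 9.71 kb from Tnfrsf18. It had the highest level of the 7 in both tissues, with 903.25, 963.06 and 939.31 FPKM in splenic cells and 2061.45, 2567.65 and 1785.11 FPKM in cord cells. The spinal cord libraries were more spread than the spleen libraries, with coefficients of variation of 18.6% and 3.22%. On the log2 scale the fold change was 1.18 (SE 0.15, limma adjusted p = 2.73e-05). The annotated span of Tnfrsf4 shares 16 bases with that of Sdf4, a gene for a calcium-binding protein of the Golgi. Sdf4 went from 138 ± 9.64 to 292 ± 51.8 FPKM as deposited (log2 fold change 1.06, SE 0.16). With each library scaled to the same total over the table, its log2 fold change was 0.13 (limma adjusted p = 0.621). The ratio of Tnfrsf18 to Tnfrsf4 was 0.571 ± 0.0504 in the spleen and 0.668 ± 0.114 in the spinal cord, and these ranges overlapped.

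Spinal cord libraries did not deviate alike in every receptor. Tnfrsf4 and Icos were both highest in spinal cord library 2 and lowest in library 3, and Tigit and Lag3 were both highest in library 1. The ratio of Tnfrsf4 to Icos was 16.1 ± 0.562 in the spleen and 16.2 ± 1.27 in the spinal cord. The FPKM sum over the table was highest in spinal cord library 2 and lowest in library 1, and the part of this in the receptor values was not tested.

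In order of level, the spleen libraries had Tnfrsf4, Tnfrsf18 and Tnfrsf9 on top, each clear of the next. Icos (58.0 ± 2.63 FPKM) and Tigit (57.6 ± 6.80 FPKM) followed and overlapped each other. Ctla4 (39.3 ± 2.87 FPKM) and Lag3 (33.4 ± 3.32 FPKM) came last, with every Ctla4 value just above every Lag3 value. In the spinal cord the first 3 kept this order at 2138 ± 397, 1398 ± 38.3 and 1111 ± 48.8 FPKM. Tigit (224 ± 31.0 FPKM) and Ctla4 (188 ± 11.5 FPKM) came next and overlapped, and Icos (131 ± 17.1 FPKM) and Lag3 (116 ± 17.3 FPKM) overlapped as well. Icos thus moved from above Ctla4 in every spleen library to below it in every spinal cord library.

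The make-up of the receptor transcripts within a library was taken from the values as deposited. It is not altered by a single scaling factor per library such as equal totals, but it is altered by quantile normalization. The 7 genes together summed to 1810, 1839 and 1825 FPKM in the spleen libraries and 5253, 5796 and 4873 FPKM in cord cells libraries. Tnfrsf9 made up 8.90%, 9.26% and 9.40% of that sum in the spleen and 21.5%, 19.8% and 21.7% in the spinal cord. Tnfrsf4 went the other way, with 49.9%, 52.4% and 51.5% in the spleen and 39.2%, 44.3% and 36.6% in the spinal cord. The share of Ctla4 was 2.15% ± 0.145 in the spleen and 3.55% ± 0.292 in the spinal cord, and that of Icos was 3.18% ± 0.126 and 2.47% ± 0.147 (SD, n = 3 each), in both cases with no overlap. The shares of Tnfrsf18, Tigit and Lag3 overlapped between the tissues. These shares are tied to each other, since they add up to the whole.

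**Figure D2:**
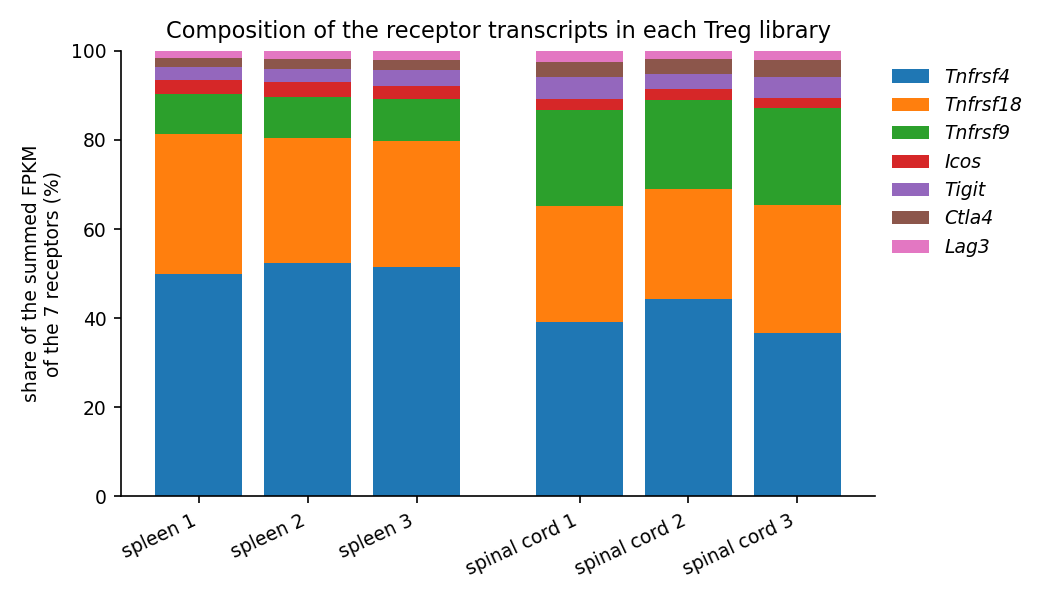
Share of the summed FPKM of the 7 receptor genes (%) taken by each gene in each Treg library, 3 from the spleen and 3 from the spinal cord. Tnfrsf9 covers 8.90% to 9.40% of each spleen bar and 19.8% to 21.7% of each spinal cord bar, while Tnfrsf4 covers 49.9% to 52.4% and 36.6% to 44.3%.

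Ratios of 2 receptors inside a library were compared pair by pair, also with the values as deposited. Of the 21 pairs, 16 had ratios that did not overlap between spleen and spinal cord. Over all pairs of tested genes in the table, 62.2% did not overlap. Those pairs also join genes called higher with genes called lower, whereas every receptor was higher. The share over all pairs is therefore not a like background for the receptor pairs, and nothing is read from setting them side by side. The ratio of Tnfrsf9 to Tnfrsf4 was 0.179 ± 0.00299 in the spleen and 0.529 ± 0.0744 in the spinal cord, and that of Tnfrsf9 to Icos was 2.89 ± 0.149 and 8.53 ± 0.785. Tnfrsf9 also separated from Ctla4, the next in order of fold change, with ratios of 4.28 ± 0.174 and 5.94 ± 0.454. The other neighbours in that order overlapped in 4 of 5 cases, which were Ctla4 with Tigit, Tigit with Lag3, Tnfrsf18 with Tnfrsf4, and Tnfrsf4 with Icos. Lag3 and Tnfrsf18, the remaining neighbours, had ratios of 0.0630 ± 0.00948 and 0.0831 ± 0.0145 that did not overlap.

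Scaling between libraries changed the size of every fold change and ended some calls. When each library was scaled to the same total over the table, the median log2 fold change of all tested genes moved by -0.86, and 24.8% of them were called higher and 63.4% in either direction. On that scale Tnfrsf9 (log2 fold change 1.79), Ctla4 (1.31), Tigit (1.01), Lag3 (0.84) and Tnfrsf18 (0.46) were called higher by limma, 5 of the 7. Icos (0.23, limma adjusted p = 0.319) and Tnfrsf4 (0.24, limma adjusted p = 0.183) were not. After quantile normalization, which moved the median by -0.44 and left 45.9% of genes called higher and 84.5% called in either direction, 5 of the 7 were called again. Here Tnfrsf18 (0.10, limma adjusted p = 0.435) and Tnfrsf4 (0.00, limma adjusted p = 0.99) were not, and Icos was (0.63). All 7 values lay at or above 0 in each scaling. Both scalings use genes selected for change, and no tested gene had a log2 fold change between -0.5 and 0.5, so the table has no unchanged genes to scale on. Tnfrsf9, Ctla4, Tigit and Lag3 were called higher under all 3 scalings.

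**Figure D3:**
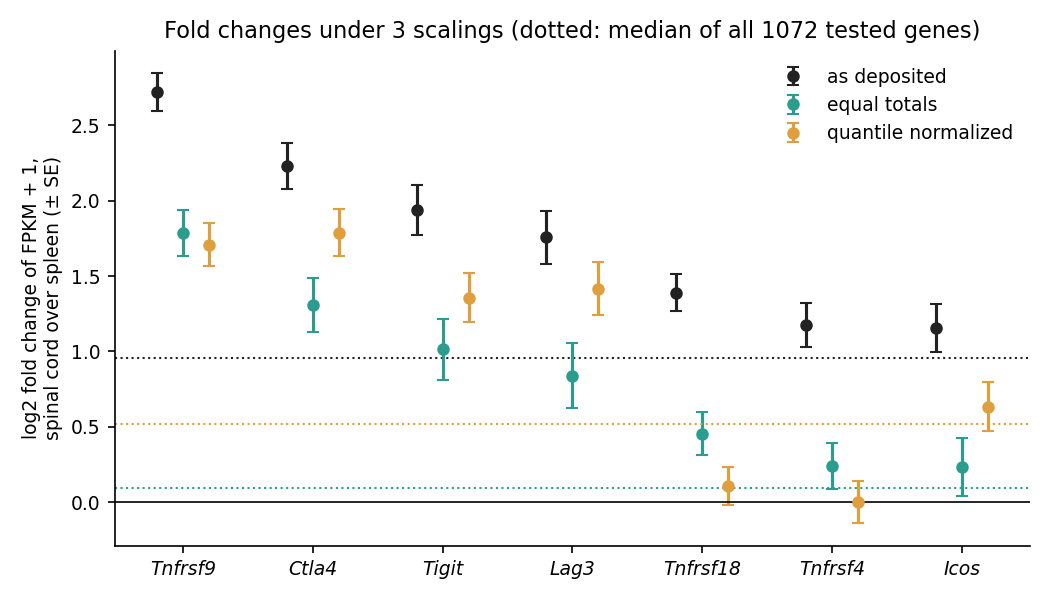
Log2 fold change of FPKM + 1, spinal cord over spleen, for the 7 receptors with the values as deposited (black), equal totals (green) and quantile normalization (orange), each as limma's estimate ± SE from 3 libraries a group, with dotted lines for the median of all tested genes. Tnfrsf9 lies between 1.71 and 2.72 under the 3 scalings, and Tnfrsf4 between 0.00 and 1.18.

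**Figure D4:**
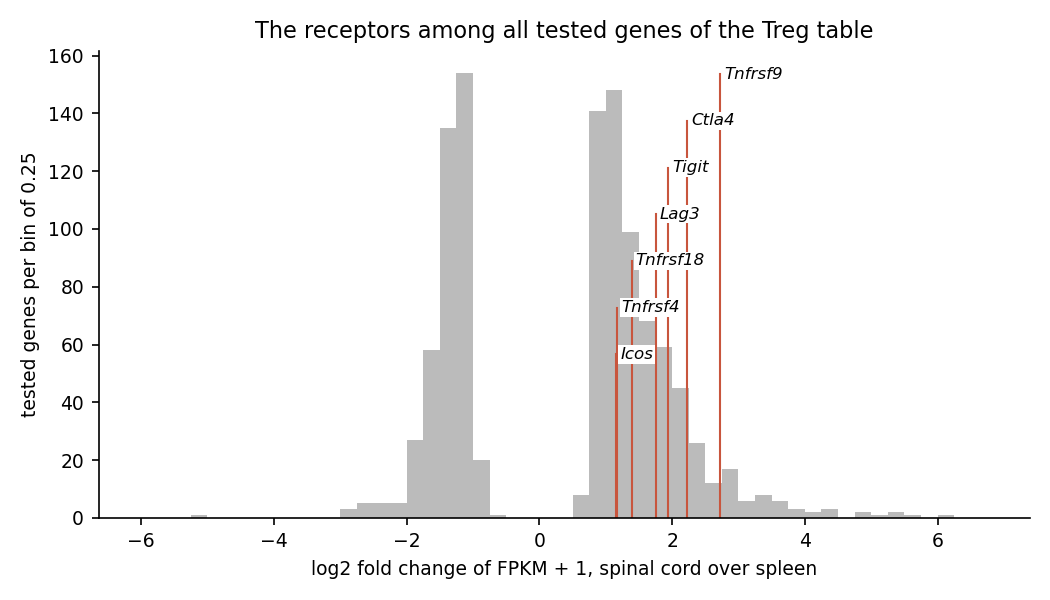
Number of tested genes of the Treg table per 0.25 of log2 fold change (FPKM + 1, spinal cord over spleen; grey), with a red line at each receptor, whose height has no meaning. No gene lies between -0.5 and 0.5, and the receptors span 1.16 (Icos) to 2.72 (Tnfrsf9).

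Promoter windows of RefSeq genes on GRCm38.p6, from 250 bases before to 50 after a start site, were found for 5 of the 7 genes, in 6 windows. Tnfrsf9 has 2 annotated starts, and both windows are shown because this gene had the largest fold change. Ctla4 is shown as the second in order, and Tnfrsf4 because it had the smallest fold change of the genes with a window. The windows are chr4:150919905-150920204 and chr4:150927749-150928048 for Tnfrsf9, chr1:60908775-60909074 for Ctla4 and chr4:156013445-156013744 for Tnfrsf4, all on the plus strand. Capitals mark matches to the motifs named after the sequences.
Tnfrsf9 upstream start: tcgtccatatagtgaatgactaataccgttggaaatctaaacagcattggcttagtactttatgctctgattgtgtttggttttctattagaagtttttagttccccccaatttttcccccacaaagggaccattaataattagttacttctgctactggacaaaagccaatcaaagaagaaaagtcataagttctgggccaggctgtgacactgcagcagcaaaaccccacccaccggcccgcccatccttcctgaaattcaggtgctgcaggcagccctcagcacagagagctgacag
Tnfrsf9 downstream start: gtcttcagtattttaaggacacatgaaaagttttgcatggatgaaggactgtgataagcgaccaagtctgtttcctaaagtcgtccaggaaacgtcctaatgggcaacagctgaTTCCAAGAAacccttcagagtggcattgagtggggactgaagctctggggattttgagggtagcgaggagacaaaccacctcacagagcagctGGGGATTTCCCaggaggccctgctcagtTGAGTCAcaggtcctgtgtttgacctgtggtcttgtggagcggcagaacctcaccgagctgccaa
Ctla4: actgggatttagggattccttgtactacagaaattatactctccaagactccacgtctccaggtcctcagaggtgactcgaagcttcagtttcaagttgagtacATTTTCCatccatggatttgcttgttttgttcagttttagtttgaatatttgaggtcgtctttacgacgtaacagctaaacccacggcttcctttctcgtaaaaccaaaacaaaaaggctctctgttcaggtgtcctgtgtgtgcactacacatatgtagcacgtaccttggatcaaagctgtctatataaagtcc
Tnfrsf4: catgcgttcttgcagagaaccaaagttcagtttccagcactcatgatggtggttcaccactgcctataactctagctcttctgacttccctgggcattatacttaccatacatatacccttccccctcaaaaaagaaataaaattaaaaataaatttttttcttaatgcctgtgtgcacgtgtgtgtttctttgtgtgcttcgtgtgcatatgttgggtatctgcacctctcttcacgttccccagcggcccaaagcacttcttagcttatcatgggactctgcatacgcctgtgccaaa

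The motifs searched on both strands were the NF-κB consensus, AP-1 (TGANTCA), STAT (TTCNNNGAA), NFAT (GGAAAAT) and forkhead (TGTTTAC). The downstream window of Tnfrsf9 held an NF-κB match, read as GGGGATTTCC and, 1 base further, as the overlapping GGGATTTCCC, which starts 42 bases before the start site. It also held AP-1 as TGAGTCA, 15 bases before the start site, and a STAT match as TTCCAAGAA, 136 bases before it. Of 32851 RefSeq windows of this length, 4.51% held the NF-κB motif, 7.81% AP-1, 8.30% STAT, 4.82% NFAT and 3.65% forkhead. Ctla4 held the NFAT letters on the minus strand, Tnfrsf18 held a STAT match, and the forkhead letters were in none of the 6 windows. No match was found in the windows of Tigit, of Tnfrsf4 or of the upstream start of Tnfrsf9. These are matches of letters only.

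Few other genes of the same pathways had a row in the Treg table. Of 14 other inhibitory receptors, 2 had a row. Pilra, under the filter, stood at 0, 0.04 and 0.04 FPKM in splenic cells and 1.01, 0.48 and 1.53 FPKM in cord cells. Only 1 was tested, and it fell. It was Btla, a receptor for the TNF receptor family member HVEM, at 25.41, 30.41 and 32.39 FPKM in splenic cells and 13.32, 11.11 and 11.01 FPKM in cord cells (log2 fold change -1.24, SE 0.22, limma adjusted p = 2.85e-04). Of 13 other costimulatory receptors, Cd2 was the 1 tested, and its log2 fold change was 1.19 (SE 0.13, limma adjusted p = 8.07e-06) as deposited and 0.26 with equal totals (limma adjusted p = 0.128). Of 17 other TNF receptor superfamily genes, 1 was tested, and Tnfrsf10b, the receptor for the death ligand TRAIL, fell from 10.6 ± 0.522 to 3.58 ± 1.04 FPKM.

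Of 27 genes for adaptors, trafficking and NF-κB signalling, the 1 tested was Traf1, an adaptor that binds 4-1BB and other TNF receptors. It stood at 69.99, 45.36 and 41.78 FPKM in splenic cells and 153.86, 145.47 and 181.72 FPKM in cord cells. The groups did not overlap, although spleen library 1 stood apart from the other spleen libraries. The log2 fold change was 1.63 (SE 0.20, limma adjusted p = 2.65e-05), and Traf1 was also called with equal totals (0.70, limma adjusted p = 0.00961).

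Of 22 ligands and counter-receptors, 3 were tested in the Treg cells. As deposited 2 were higher and 1 lower, where 61.0% of all tested genes were called higher and 99.6% in either direction, and with equal totals 1 was higher and 1 lower. Cd86, a ligand of CTLA-4 and CD28, went from 1.64, 1.06 and 1.88 FPKM to 7.3, 5.57 and 5.78 FPKM (log2 fold change 1.52, SE 0.29, limma adjusted p = 4.81e-04). Tnfsf14, which encodes LIGHT, a ligand of HVEM, fell from 13.3 ± 1.57 to 4.87 ± 1.34 FPKM. Lgals9, which encodes galectin-9, had a log2 fold change of 1.21 as deposited (limma adjusted p = 1.96e-05) and 0.28 with equal totals (limma adjusted p = 0.183).

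Cell type markers other than those of T cells also differed by tissue, and their part in the receptor values was not tested. Of all 1072 tested genes, 61.0% were called higher as deposited, 24.8% with equal totals and 45.9% with quantile normalization. In either direction the shares were 99.6%, 63.4% and 84.5%. Of 13 microglia and macrophage markers, 5 had a row, and their summed level was 9.77 to 18.75 FPKM in the spleen libraries and 50.98 to 66.83 FPKM in cord cells libraries. The 4 tested, Cx3cr1, Cd68, Cd14 and Csf1r, were all called higher as deposited, and with equal totals Cd14 alone was. With quantile normalization Cx3cr1 (log2 fold change 1.31), Cd68 (1.11) and Cd14 (3.31) were called higher, and Csf1r (0.44) was not. C1qb was listed at 0 in every spleen library. Of 7 neutrophil markers 2 had a row, S100a8 and Mmp8, summing to 4.22 to 9.77 FPKM in splenic cells and 28.4 to 83.03 FPKM in cord cells. Both were called higher as deposited, with equal totals and with quantile normalization. For 3 of 5 endothelial markers, Pecam1, Ly6c1 and Kdr, the sums were 39.36 to 44.42 and 163.36 to 409.54 FPKM, most of it Ly6c1, which T cells also express. The oligodendrocyte list had 1 of 6 genes with a row, Cnp, at 48.04 to 56.72 and 158.97 to 207.75 FPKM. The B cell list had 1 of 6, Cd79b, listed at 0 in the spleen and at 2.66 to 5.38 FPKM in cord cells. For natural killer, CD8 and gamma-delta T cells 3 of 10 had a row, with sums of 114.3 to 117.75 and 40.05 to 66.48 FPKM, mostly Xcl1, which fell. Klrk1, an activating receptor of natural killer and CD8 T cells, went the other way, from 1.88, 0 and 1.7 FPKM to 7.37, 4.54 and 11.56 FPKM (log2 fold change 2.08, SE 0.44, limma adjusted p = 9.36e-04), and was also called with equal totals and quantile normalization. Klrb1c was listed at 0 in every spleen library. The neuron list had 1 of 5, Nefh, at 1.38 to 5.37 and 0.88 to 1.16 FPKM, and the astrocyte list had none of 5.

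Among the symbols searched, Mgst3, Edem2, Eva1b, Lsp1 and Tspo lay nearest to the mean profile of the 7 receptors over the 6 Treg libraries. Symbols that begin with a digit, LOC or Gm were not searched, which also left out named genes such as Gmfg. Likeness was the Euclidean distance between log2(FPKM + 1) profiles centred on their own means, and these 5 lay at 0.162, 0.212, 0.224, 0.263 and 0.278. The receptors themselves lay between 0.263 (Lag3) and 1.17 (Tnfrsf9) from their mean, so these 5 genes resemble the mean more closely than most receptors do. Lsp1, an actin-binding protein of leukocytes, went from 78.1 ± 2.16 to 302 ± 33.6 FPKM, and Tspo, a protein of the outer mitochondrial membrane, from 321 ± 32.2 to 1069 ± 121 FPKM.

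In the microglia table, Lag3 and Tnfrsf9 were present at low levels. Summed over its 2186 rows, the control libraries held 59529 to 61068 FPKM and the co-cultured libraries 115884 to 117408 FPKM. Of 13 microglia and macrophage markers 8 had a row there, among them C1qa at 1367 ± 38.1 FPKM in the controls and 2998 ± 19.3 FPKM in co-culture. The log2 fold change of C1qa was 1.13 as deposited, 0.17 with equal totals and 0.00 with quantile normalization. Cx3cr1, the fractalkine receptor, fell from 136 ± 8.86 to 1.45 ± 0.253 FPKM. Lag3 stood at 0.24, 0.43 and 0.34 FPKM in the control libraries and at 0.86, 0.84 and 0.65 FPKM in the libraries co-cultured with Treg cells. The groups did not overlap, and Lag3 was above 0 in microglia that had not met Treg cells. Tnfrsf9 stood at 0.02, 0.1 and 0.12 FPKM in the controls and 0.45, 0.2 and 0.21 FPKM in co-culture. Both genes were under the filter of 1 FPKM. Without the filter, limma gave a log2 fold change of 0.42 for Lag3 (adjusted p = 9.25e-04) and 0.25 for Tnfrsf9 (adjusted p = 0.0176). The log2(FPKM + 1) scale understates changes of low genes. In that setting 2171 of the 2186 microglia genes were called, 1021 of them higher. The deposited microglia table is a selection too, where the authors' smallest log2 value in size was 1.0006 and their largest Q value 0.0497. Hence the microglia fold changes and p-values, here and below, describe size and spread and are not independent evidence of a difference. Ctla4, Tigit, Icos, Tnfrsf4 and Tnfrsf18 are not analysed here in microglia.

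Lag3 exceeded Tnfrsf9 in every microglia library, whereas Tnfrsf9 exceeded Lag3 in every Treg library, with ratios of 5.04 ± 0.347 in the spleen and 9.70 ± 1.17 in the spinal cord. Of the 11 Treg and T cell markers 1 had a row in the microglia table, Ikzf2, at 0.41 to 0.48 FPKM in the controls and 1.14 to 1.24 FPKM in co-culture. Of the 10 markers of natural killer, CD8 and gamma-delta T cells 2 had a row, Klrk1 and Cd8b1, summing to 0.03 to 0.19 and 1.54 to 2.07 FPKM. The part of RNA from co-cultured T cells in the values of Lag3 and Tnfrsf9 was not tested.

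Of the listed ligands of the 7 receptors, Cd86, Tnfsf9 and Nectin3 were tested in microglia, and their differences varied in size and direction. Of 22 ligands and counter-receptors, 8 were tested, and 6 were higher and 2 lower in co-culture, where limma called 53.4% of the 1529 tested genes higher and 100% in either direction. Cd86, bound by CTLA-4, stood at 14.78, 11.99 and 13.39 FPKM in the controls and at 67.67, 66.21 and 68.29 FPKM in co-culture. The co-cultured libraries lay close together and far above the controls, and the log2 fold change was 2.25 (SE 0.08, limma adjusted p = 9.29e-08), or 1.33 with equal totals. Tnfsf9, the ligand of 4-1BB, was lower in level, at 1.74, 1.82 and 1.74 FPKM and 3.11, 3 and 3.45 FPKM. Its log2 fold change was 0.60 (SE 0.07, limma adjusted p = 8.05e-05) as deposited and -0.08 with equal totals, where it was not called (limma adjusted p = 0.334). Nectin3, a ligand of TIGIT, fell from 3.72 ± 0.172 to 1.26 ± 0.501 FPKM (log2 fold change -1.08, SE 0.15, limma adjusted p = 2.13e-04). Cd80, Icosl, Tnfsf4, Tnfsf18, Pvr, Nectin2 and Fgl1 are not analysed here. The MHC class II genes, whose products LAG-3 binds, were not on the ligand list and are not described here in either cell type.

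Ligands of the inhibitory receptor PD-1, which is not one of the 7, were also on the list. Cd274, which encodes PD-L1, was at 21.18, 17.33 and 17.73 FPKM in the controls and at 466.47, 439.49 and 435.66 FPKM in co-culture (log2 fold change 4.51, SE 0.08, limma adjusted p = 1.01e-08). Pdcd1lg2, which encodes PD-L2, was at 1.11, 0.24 and 0.6 FPKM and at 64.35, 65.16 and 57.19 FPKM (log2 fold change 5.29, SE 0.18, limma adjusted p = 1.02e-07). Both were higher with equal totals as well, by 3.58 and 4.67. Cd40, a receptor on antigen-presenting cells for CD40 ligand, rose from 0.363 ± 0.0814 to 16.1 ± 1.28 FPKM. By ratio of mean FPKM this was 44.3-fold, against 23.9-fold for Cd274 and 95.7-fold for Pdcd1lg2, while on the log2(FPKM + 1) scale Cd40 (3.65) came after both. Tnfsf14 rose from 0.170 ± 0.0173 to 3.38 ± 0.282 FPKM, whereas it was lower in spinal cord than in spleen Treg cells. Cd276, which encodes B7-H3, fell 5.24-fold to 2.04 ± 0.276 FPKM.

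**Figure D5:**
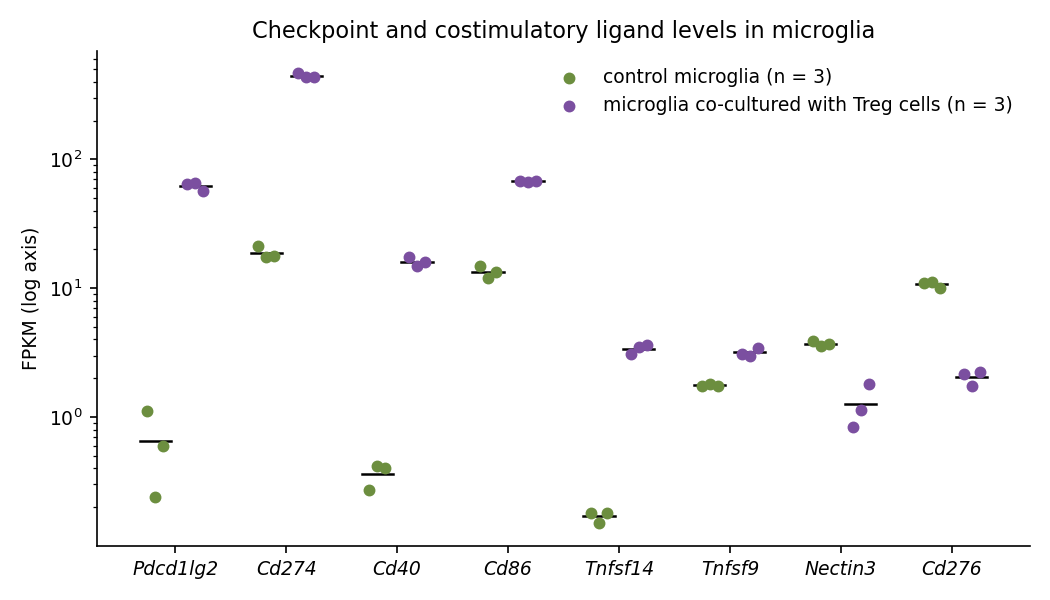
FPKM (log axis) of the 8 tested ligands and counter-receptors in control microglia (green) and in microglia co-cultured with Treg cells (purple), 3 libraries each, with black bars for group means, in order of log2 fold change. Cd274 rises from 18.7 to 447 FPKM and Cd86 from 13.4 to 67.4 FPKM, while Nectin3 and Cd276 are lower in co-culture.

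Receptors of the same families were measured in the microglia too. Of the costimulatory list 5 of 13 were tested, with 3 higher and 2 lower, where 53.4% of all tested microglia genes were called higher and 100% in either direction. Cd28 fell from 11.98, 11.51 and 10.88 FPKM to 1.5, 1.36 and 1.33 FPKM (log2 fold change -2.38, SE 0.07, limma adjusted p = 4.78e-08), and Cd81, a tetraspanin, fell 3.16-fold. Tnfrsf14, which encodes HVEM, rose 3.92-fold, Slamf6 rose 4.55-fold, and Slamf1 rose from 0.0967 ± 0.0404 to 2.83 ± 0.249 FPKM. Of the inhibitory list 2 of 14 were tested. Vsir, which encodes VISTA, fell from 149 ± 5.70 to 54.1 ± 1.71 FPKM, and Cd244a rose from 1.18 ± 0.0987 to 3.32 ± 0.283 FPKM. The log2 fold change of Cd244a was 0.99 as deposited and 0.36 with equal totals.

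Of the adaptor and NF-κB list, 7 of 27 genes were tested in microglia. All 7 were higher with the deposited values, where 53.4% of tested genes were called higher and 100% in either direction. Equal totals left 4 called higher and 1 lower, against 35.1% of tested genes called higher and 82.9% in either direction. Nfkbie, an inhibitor of NF-κB, rose 3.99-fold (log2 fold change 1.70, SE 0.10, limma adjusted p = 1.30e-06). Pik3cd, a phosphoinositide kinase of leukocytes, rose 2.60-fold, and Birc3, a ubiquitin ligase that binds TRAF proteins, rose 2.51-fold. With equal totals their log2 fold changes were 0.40 and 0.34. The phosphatase gene Ptpn6 rose 2.12-fold as deposited, and its log2 fold change with equal totals was 0.12 (limma adjusted p = 0.042). Nfkbia, another NF-κB inhibitor, had a log2 fold change of 1.06 as deposited and 0.12 with equal totals (limma adjusted p = 0.256). Ap2m1, a clathrin adaptor subunit that takes CTLA-4 into the cell, was higher as deposited (0.84) and lower with equal totals (-0.11, limma adjusted p = 0.0386). The other TNF receptor genes tested were Tnfrsf26 and Tnfrsf1a, and Cd40 is on that list as well. Tnfrsf26 rose 2.83-fold as deposited, and its log2 fold change with equal totals was 0.51. Tnfrsf1a, the TNF receptor, had a log2 fold change of 0.95 as deposited and 0.00 with equal totals (limma adjusted p = 0.968).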

How the data were processed

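Each table held FPKM values of 6 libraries that the authors had computed and deposited with 2 decimals. Each table also held a log2 fold change and a Q value deposited by the authors. Bowtie2, RSEM 1.3.1, DESeq2 1.4.5 and GRCm38.p6 are named without roles in the submitters' processing notes. The microglia fold change column is headed by a group name not found in the labels, and it was read as co-culture over control, since its sign matched in all 2186 genes. Groups and replicate numbers came from the sample titles.

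The tables were normalized separately and fitted separately. Genes with a mean of at least 1 FPKM were kept (1072 of 1284 and 1529 of 2186), transformed to log2(FPKM + 1), and fitted by limma 3.58.1 under R 4.3.3 (mean-variance trend, Benjamini-Hochberg adjustment, threshold 0.05). The script was tested on simulated data. The alternatives were a pseudocount of 0.1, no filter or a mean of at least 5 FPKM, equal totals, quantile normalization, no trend, a replicate block, an adjusted p under 0.01 and leaving out each library. Python 3.11.15, pandas 2.3.3, numpy 2.4.6 and matplotlib 3.10.9 were used otherwise. RefSeq coordinates and promoters were matched by NCBI gene ID.

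The members and the gene lists were chosen with earlier results of these data known. The rule for names took all members, up to 6 called genes of each list (largest fold changes) and markers of other cells with a row. It also took the 5 genes nearest in profile among the symbols searched. Tnfsf9 and Nectin3 in microglia fall outside it and were added, after their values were seen, as ligands of members. Pilra in Treg cells also falls outside it and was added after its values were seen. Of the microglia table, markers other than those of microglia and T or natural killer cells are not described.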

Additional observations from a re-analysis of the deposited data

How the results depend on the processing

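All 7 receptors were called higher with the values as deposited and under a pseudocount of 0.1, both other filters, no trend, an adjusted p under 0.01 and each library left out. Nothing is read from these counts, since the table had been selected for change. A pseudocount of 0.1 called 1063 of 1072 tested genes (649 higher), and no trend called 1061 (647 higher). No filter called 1198 of 1284 (748 higher), and a mean of at least 5 FPKM called 839 of 840 (507 higher). Equal totals ended the calls of Icos (log2 fold change 0.23) and Tnfrsf4 (0.24), and quantile normalization those of Tnfrsf18 (0.10) and Tnfrsf4 (0.0019). The sums over the table, which equal totals removes, differed between the tissues. With equal totals 680 Treg genes were called in place of 1068, 266 higher and 414 lower, so 39.1% of called genes were higher against 61.2% as deposited. With a mean of at least 5 FPKM 1001 microglia genes were called in place of 1529, since fewer were tested.

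Leaving out 1 library at a time gave log2 fold changes of 2.69 to 2.76 for Tnfrsf9, 2.17 to 2.28 for Ctla4, 1.84 to 2.04 for Tigit, 1.64 to 1.84 for Lag3, 1.37 to 1.44 for Tnfrsf18, 1.04 to 1.3 for Tnfrsf4 and 1.08 to 1.26 for Icos, with 7 members called each time. It called 1032 to 1043 of the 1072 tested Treg genes and 1528 to 1529 of the 1529 tested microglia genes.

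The deviations of same-numbered Treg libraries from their group means had correlations of -0.0029, -0.041 and -0.053. With 3 libraries a group and genes selected for change, such values cannot tell whether spleen and cord libraries came from the same animals. The labels name no pairs, so the main fit took none. The replicate block called 1064 of the 1072 tested Treg genes and all 7 receptors, with a log2 fold change of 2.72 for Tnfrsf9. Depth is unknown, which limits what can be said of Lag3 and Tnfrsf9 in microglia, both under 1 FPKM.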
